A study of Mus musculus with 6 samples.

Results

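The transcripts described here are those of 7 genes of the red blood cell lineage, measured in RNA from sorted splenic invariant natural killer T (iNKT) cells of mice. They were the rows of the deposited gene table named Hbb-bs, Hbb-bt, Hba-a1, Hba-a2, Car2, Alas2 and Slc4a1, and all 7 were found among its 48709 genes. They were chosen by their exon reads and RPKM in the same 6 libraries, as a measure of red cell RNA carried through the sort. Their levels are therefore given as a description with no test.

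The labels describe 6 samples of spleen NKT cells in the resting state, 3 labelled Gpx4 cKO (Gpx4 deleted conditionally) and 3 WT (wild type). The sources used here do not give strain, age, sex or the Cre driver of the knockout. The table names its libraries by a number from 18 to 23 and index sequences that occur in no label, so 0 libraries were matched to a genotype and no comparison of Gpx4 cKO with WT was made. Total exon reads ranged 11.2-fold, from 903524 in library 21 to 10122187 in library 19. The iNKT and T cell markers (Cd3e, Cd3d, Cd3g, Trac, Zbtb16 and Cd28) summed to 2558 to 2983 CPM, where CPM is exon reads scaled to a library of 1000000 reads. All 6 of these markers were read in every library.

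Haemoglobin, the oxygen carrier of red cells, is built from pairs of alpha and beta globin chains, each of which holds a haem group. In the adult mouse the alpha chains come from Hba-a1 and Hba-a2 and the beta chains from Hbb-bs and Hbb-bt. Mature red cells of mammals lack a nucleus, but reticulocytes, their immediate precursors, still carry globin mRNA. The mouse spleen holds many red cells and can also make them. Alas2 encodes the erythroid aminolevulinate synthase, which catalyses the first step of haem synthesis. Slc4a1 encodes the chloride and bicarbonate exchanger of the red cell membrane. Car2 encodes a cytosolic carbonic anhydrase that is abundant in red cells and is also expressed outside the erythroid lineage.

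The globin genes lie in duplicated pairs, and the coding sequences within each pair were almost the same. On chromosome 7 of GRCm38, Hbb-bs (ENSMUSG00000052305) spans 103826534 to 103828096 and Hbb-bt (ENSMUSG00000073940) spans 103812524 to 103813996, both on the minus strand, with 12537 bases between them. On chromosome 11, Hba-a1 (ENSMUSG00000069919) spans 32283511 to 32284465 and Hba-a2 (ENSMUSG00000069917) spans 32296489 to 32297298 on the plus strand, with 12023 bases between them. In the GENCODE M21 transcripts the 444 coding bases of Hbb-bs and Hbb-bt were identical at 443 positions, and the 429 coding bases of Hba-a1 and Hba-a2 at 428. The differing base lies in the last of 3 exons in each gene, and the substitution was C417T from Hbb-bs to Hbb-bt and C381T from Hba-a1 to Hba-a2, counted from the first base of the start codon. The 41 coding bases around it are shown because reads from coding sequence that do not reach it fit both copies equally, and the capital marks the differing base.
Hbb-bs, chr7:103826672-103826712, minus strand: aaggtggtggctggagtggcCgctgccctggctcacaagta
Hbb-bt, chr7:103812663-103812703, minus strand: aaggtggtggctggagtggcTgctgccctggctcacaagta
Hba-a1, chr11:32284323-32284363, plus strand: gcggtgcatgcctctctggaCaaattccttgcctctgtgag
Hba-a2, chr11:32297140-32297180, plus strand: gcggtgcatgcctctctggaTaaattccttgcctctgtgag

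Before the start sites that RefSeq gives, the pairs differed in how alike they were. RefSeq's promoter table for GRCm38.p6 held 5 of the 7 genes. Its starts lie inside the gene spans of the deposited table, so that 168 of the 250 bases fell within the span of Hbb-bs, 73 of Hbb-bt, 161 of Hba-a1, 3 of Hba-a2 and 42 of Alas2. The 250 bases before the RefSeq start of Hba-a1 and Hba-a2 shared an unbroken run of 247 bases, whereas those of Hbb-bs and Hbb-bt shared no run longer than 14 bases. Of these 5, the windows of both beta genes, Hba-a1 and Alas2 are shown. The window of Hba-a2 is left out because of the shared run. The levels of all 7 genes were highest in library 23, and no link between sequence and level was tested. Capitals mark 4 short motifs, searched on both strands. They are TATAA from the TATA box, the box CCAAT, the core CACCC that Klf factors bind and the core GATAA that GATA factors bind.
Hbb-bs, chr7:103827929-103828178, minus strand: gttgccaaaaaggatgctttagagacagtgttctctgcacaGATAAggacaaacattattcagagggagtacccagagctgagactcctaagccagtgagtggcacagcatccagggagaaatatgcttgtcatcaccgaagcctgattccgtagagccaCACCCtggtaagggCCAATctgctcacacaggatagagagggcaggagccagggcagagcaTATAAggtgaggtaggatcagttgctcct
Hbb-bt, chr7:103813924-103814173, minus strand: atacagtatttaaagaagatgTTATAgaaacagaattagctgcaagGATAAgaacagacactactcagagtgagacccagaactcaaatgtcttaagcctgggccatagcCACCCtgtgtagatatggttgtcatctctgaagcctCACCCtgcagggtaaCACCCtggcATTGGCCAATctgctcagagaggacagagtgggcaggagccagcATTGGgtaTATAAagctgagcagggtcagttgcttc
Hba-a1, chr11:32283422-32283671, plus strand: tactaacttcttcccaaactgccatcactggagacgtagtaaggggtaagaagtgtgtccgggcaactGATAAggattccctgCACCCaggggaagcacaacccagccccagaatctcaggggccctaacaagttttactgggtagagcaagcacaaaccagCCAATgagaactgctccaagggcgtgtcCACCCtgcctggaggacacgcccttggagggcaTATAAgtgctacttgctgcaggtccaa
Alas2, chrX:150547167-150547416, plus strand: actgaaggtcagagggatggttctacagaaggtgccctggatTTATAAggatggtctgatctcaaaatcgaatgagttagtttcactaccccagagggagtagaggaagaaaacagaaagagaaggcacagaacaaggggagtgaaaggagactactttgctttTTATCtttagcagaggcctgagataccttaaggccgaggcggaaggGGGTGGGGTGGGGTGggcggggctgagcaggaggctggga

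All 4 motifs occurred in the windows of Hbb-bs, Hbb-bt, Hba-a1 and Hba-a2, and 3 of them in that of Alas2, which held no CCAAT match in these letters. The TATAA nearest the RefSeq start lay 29 bases before it in Hbb-bs, 28 in Hbb-bt, 27 in Hba-a1 and 30 in Hba-a2. In Alas2 the TATAA and its reverse complement overlapped, 207 and 208 bases before the start, and 3 copies of CACCC on the opposite strand lay 40, 35 and 30 bases before it. Of 32536 windows in the table, 22.7% held TATAA, 33.8% CCAAT, 52.1% CACCC and 22.5% GATAA on either strand, and 0.965% held all 4. A match describes the sequence and says nothing of binding.

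Together the 7 genes took a very small part of every library, and that part differed widely between libraries. Their exon reads numbered 46, 113, 707, 94, 797 and 815 in libraries 18 to 23, 2572 in all. As a share of exon reads this was 0.0425% in library 23 (95% exact binomial interval 0.0397% to 0.0455%) and 0.000574% in library 18 (0.000420% to 0.000765%). The summed level was 5.54, 10.6, 129, 113, 147 and 430 CPM in libraries 18 to 23. Library 23 stood highest, libraries 18 and 19 stood lowest, and the 95% exact Poisson intervals of libraries 20, 21 and 22 overlapped. Library 23 held 77.5 times the level of library 18 (95% interval 57.6 to 107). That ratio became 26.5 without library 23 and 40.4 without library 18. These intervals cover counting error only and treat each read as an independent molecule. Reads copied by PCR are not independent, so the intervals can be too narrow. In bulk RNA, fewer red cells and less RNA per red cell cannot be told apart.

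**Figure D1:**
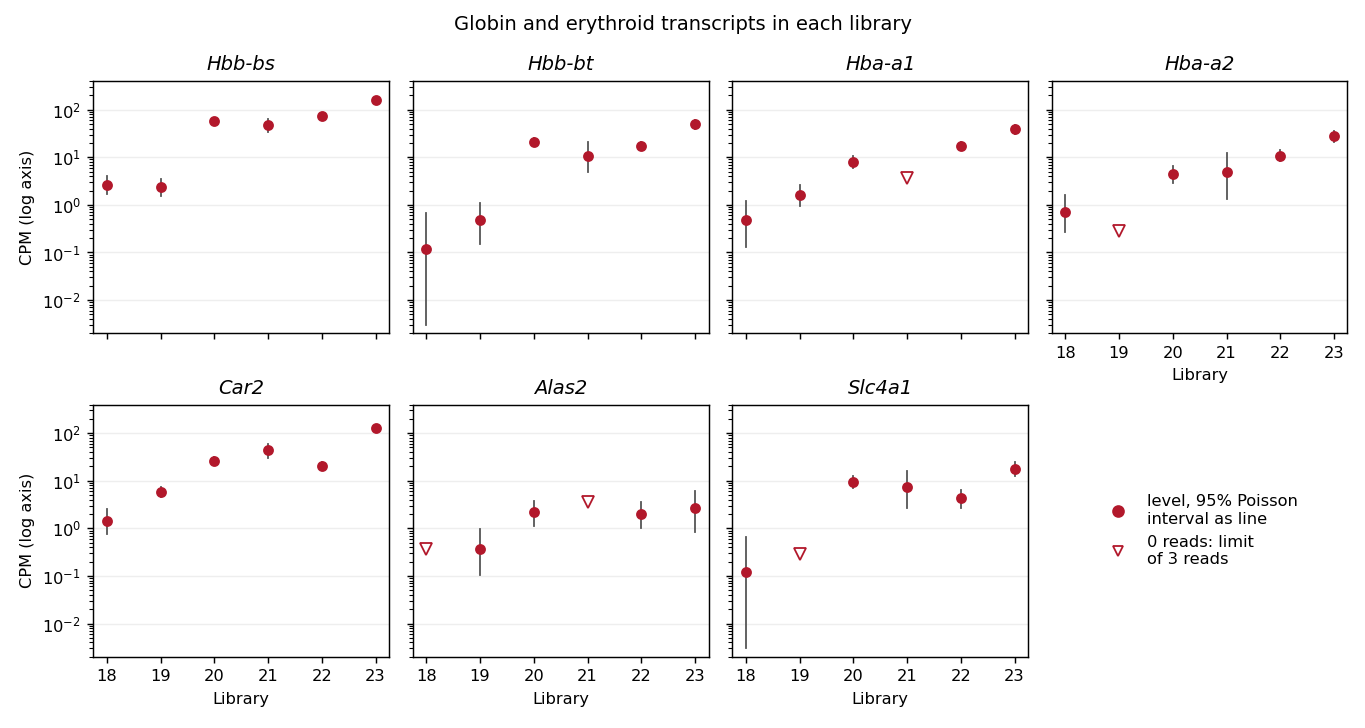
Level of each of the 7 genes in libraries 18 to 23, in CPM on a log axis. Points are single libraries, lines are 95% exact Poisson intervals, and open triangles stand at the limit of 3 reads where no read was found. The highest measured level of every gene was that of library 23.

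Each gene had at least 30 reads in total and at least a 4-fold span between its highest and lowest library, on log2 CPM with a prior count of 2. Of 11873 genes with that many reads, 19.8% spanned as much, and the median span was 1.78-fold. All 7 were highest in library 23, as were 23% of those genes. The 7 were chosen with these levels known, so nothing is read from their counts. Both shares are over all genes with at least 30 reads and, here and below, are not matched for read count. A wide span comes more easily from few reads. Hbb-bs alone passed the filter on low counts used for scaling, which asks for enough reads in all 6 libraries.

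Hbb-bs was the most abundant of the 7 per length in every library. Its level was 2.65, 2.35, 56.9, 47.1, 74.9 and 162 CPM in libraries 18, 19, 20, 21, 22 and 23. The 95% intervals of libraries 18 (1.66 to 4.01 CPM) and 19 (1.52 to 3.47 CPM) overlapped each other and lay below those of the other 4. Library 23 held 69.0 times the Hbb-bs level of library 19 (95% interval 45.9 to 108), and the ratio became 31.8 when library 23 was left out. In RPKM, the authors' read count scaled by exon length and library depth, Hbb-bs was 96.4 in library 23 and 1.55 in library 19.

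Hbb-bt, the other adult beta gene, followed at 0.12, 0.471, 20.9, 10.9, 17.4 and 49.6 CPM in libraries 18 to 23. It had only 1 read in library 18 and 5 in library 19. The ratio of library 23 to library 18 was 411 but rested on that single read, and its 95% interval ran from 72.1 to 16418. With library 18 left out it became 105, and with library 23 left out 174. In RPKM Hbb-bs exceeded Hbb-bt in 6 of 6 libraries, with medians of 28.7 and 9.44.

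Of beta reads, Hbb-bs took 73.1% (95% exact binomial interval 68.7% to 77.3%) in library 20 and 81.2% (77.5% to 84.5%) in library 22. These 2 intervals did not overlap. Library 23 fell between them at 76.6% (72.2% to 80.7%). Counting only reads with a single match, the Hbb-bs share was 72.0% (65.8% to 77.6%) in library 20 and 79.4% (73.9% to 84.3%) in library 22, and the intervals then overlapped. In libraries 18, 19 and 21 the share of all beta reads was 95.7%, 83.3% and 81.2%, from 23, 30 and 48 reads.

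In summed RPKM the alpha pair was lower than the beta pair in every library, and each alpha gene had no exon read in 1 library. Hba-a1 had 4, 17, 44, 0, 94 and 73 reads in libraries 18 to 23, which is 0.482, 1.60, 8.0, 0, 17.4 and 38.5 CPM. With no read in library 21, a level of up to 3.62 CPM was allowed, so a level as low as those of libraries 18 and 19 could not be detected there. Library 23 held 79.9 times the Hba-a1 level of library 18 (95% interval 29.9 to 301), the lowest library with a read. Left out in turn, library 18 gave a ratio of 24.0 and library 23 one of 36.0.

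Hba-a2 had 6, 0, 25, 4, 59 and 52 reads, or 0.723, 0, 4.55, 4.83, 10.9 and 27.4 CPM in libraries 18 to 23. With the count of 0 in library 19 set to the limit of 3 reads per library, it was at least 97.1-fold higher in library 23. The exact 95% lower limit of that ratio, which allows for the counting error of both libraries, was 31.4. The ratio of 97.1 became 37.9 with library 19 left out, and at least 38.6 with library 23 left out. The 2 alpha genes had close median levels, 2.54 RPKM for Hba-a1 and 2.99 RPKM for Hba-a2, and Hba-a2 was the higher of the pair in 2 of 6 libraries. In those 2, libraries 18 and 21, Hba-a2 had 6 and 4 reads, none with a single match. Of alpha reads with a single match, Hba-a1 took 76.7% (57.7% to 90.1%) in library 20, 70.7% (54.5% to 83.9%) in library 22 and 71.8% (55.1% to 85.0%) in library 23. Libraries 18 and 19 had 1 and 8 such reads, all of Hba-a1. Library 19 gave all 17 of its alpha reads to Hba-a1 and library 21 gave all 4 of its alpha reads to Hba-a2.

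Many globin reads matched more than 1 place in the genome. A single match was recorded for 48.5% of Hbb-bs reads, 56.9% of Hbb-bt reads, 38.4% of Hba-a1 reads and 20.5% of Hba-a2 reads over all libraries. Across all genes the share was 97.2% to 97.6% in each library, and it was 100% for Car2, Alas2 and Slc4a1. The sources used here do not say how the authors placed reads with several matches, so the split within each near-identical pair is uncertain.

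The balance of beta to alpha reads was not the same in every library. Beta genes took 69.7%, 63.8%, 86.1%, 92.3%, 76.6% and 76.3% of globin reads in libraries 18 to 23, a median of 76.4%. The number of beta reads per alpha read was 6.20 in library 20 (95% exact interval 4.80 to 8.12), 3.27 in library 22 (2.72 to 3.94) and 3.22 in library 23 (2.62 to 3.96). The interval of library 20 lay above those of libraries 22 and 23, which overlapped almost wholly. Library 21 gave 12 (4.39 to 45.8) from 4 alpha reads. Library 18 gave 2.30 (1.05 to 5.41) and library 19 gave 1.76 (0.942 to 3.41). Per length the ratios were close to these, for example 6.23 in library 20 and 3.24 in library 22 from RPKM sums.

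**Figure D2:**
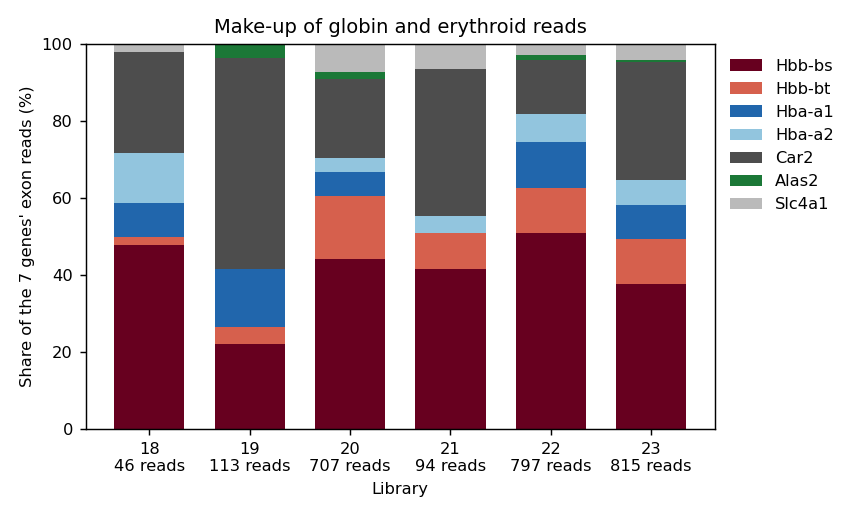
Share of the 7 genes' exon reads that each gene took, in percent, in libraries 18 to 23, with the number of reads under each bar. Beta globin genes are in reds, alpha globin genes in blues, Car2 in dark grey, Alas2 in green and Slc4a1 in light grey. Car2 took 54.9% of the reads in library 19 and 13.8% in library 22.

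Car2 did not keep a fixed ratio to the globin genes. Its level was 1.45, 5.84, 26.5, 43.4, 20.3 and 131 CPM in libraries 18 to 23. Library 23 was again highest, at 90.8 times library 18 (95% interval 51.1 to 178). That ratio became 22.5 with library 18 left out and 30.05 with library 23 left out. Library 19 held 62 reads of Car2 beside 47 globin reads, a ratio of 1.32 (95% exact interval 0.888 to 1.97). Library 22 held 110 beside 653, a ratio of 0.168 (0.136 to 0.206). Libraries 18, 20 and 23 gave 0.364 (0.171 to 0.722), 0.294 (0.243 to 0.354) and 0.472 (0.405 to 0.550), and library 21 gave 0.692 (0.440 to 1.08). The interval of library 19 lay above those of libraries 18, 20, 22 and 23, and the interval of library 22 lay below those of libraries 19, 20, 21 and 23. Car2 (ENSMUSG00000027562) spans 14886273 to 14900770 on the plus strand of chromosome 3.

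**Figure D3:**
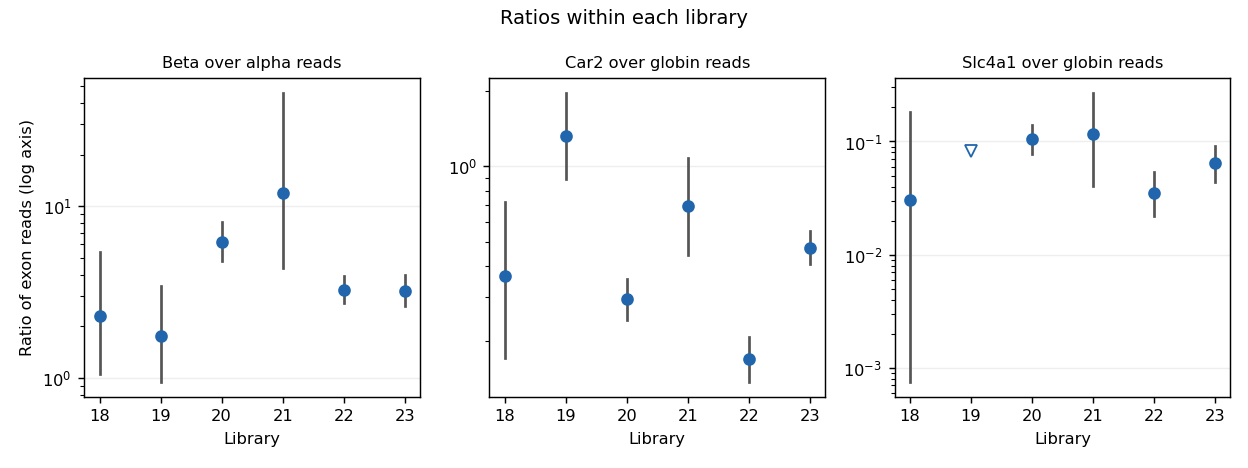
Ratio of exon reads within each library, on log axes: beta over alpha globin, Car2 over globin and Slc4a1 over globin. Points are single libraries, lines are 95% exact intervals, and the open triangle is the upper limit of the interval in library 19, where Slc4a1 had no read. Car2 was highest relative to globin in library 19 and lowest in library 22.

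Slc4a1, the membrane exchanger gene, had 1, 0, 52, 6, 23 and 34 reads in libraries 18 to 23, or 0.12, 0, 9.45, 7.24, 4.25 and 17.9 CPM. The ratio of library 23 to library 18 was 149 but rested on 1 read (95% interval 25.0 to 6047). It became at least 63.5 with library 18 left out and 78.5 with library 23 left out. Its reads per globin read were 0.105 in library 20 (95% exact interval 0.0771 to 0.139) and 0.0352 in library 22 (0.0222 to 0.0533), intervals that did not overlap. The gene (ENSMUSG00000006574) lies at 102348824 to 102366203 on the minus strand of chromosome 11.

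Alas2 (ENSMUSG00000025270), at 150547375 to 150570638 on the plus strand of chromosome X, was the scarcest of the 7. It had 0, 4, 12, 0, 11 and 5 exon reads in libraries 18 to 23, or 0, 0.377, 2.18, 0, 2.03 and 2.64 CPM. The intervals of libraries 20 (1.13 to 3.81 CPM), 22 (1.0 to 3.63 CPM) and 23 (0.856 to 6.15 CPM) overlapped. With the count of 0 in library 18 set to the limit of 3 reads, library 23 was at least 7.29-fold higher, but it held only 5 reads, and the exact 95% lower limit of the ratio was 1.42. In library 21 the limit for a count of 0, 3.62 CPM, was above every Alas2 level measured.

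As a measure of likeness, log2 CPM (prior count 2) was centred on its mean over the 6 libraries, and the root mean square difference from the summed globin reads was taken. It was 0.58 for Slc4a1, 0.92 for Car2 and 1.63 for Alas2, against a median of 2.32 over 8943 genes with a median of at least 5 CPM. Alas2, with a median of 1.20 CPM, did not reach that level. The members were chosen with these levels known, so nothing is read from their likeness. Per length, the order of median levels was Hbb-bs, Hbb-bt, Car2 (4.33 RPKM), Hba-a2, Hba-a1, Slc4a1 (0.536 RPKM) and Alas2 (0.227 RPKM). Neighbours in the middle of that order did not keep it in every library. Hbb-bt exceeded Car2 in 3 of 6 libraries and Car2 exceeded Hba-a2 in 4 of 6, while Hba-a1 exceeded Slc4a1 in 5 of 6, and Slc4a1 exceeded Alas2 in 5 of 6.

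Intron reads, which the rule for the list did not use, differed between the members. Over genes with an exon read, introns took 45.5% to 50.6% of gene reads in each library. The share was 19.99% for Hbb-bs (278 intron reads) but 0.313% for Hbb-bt (1 read). For Hba-a1 it was 19.2% and for Hba-a2 4.58%, each over the 5 libraries with an exon read. In library 19 all reads of Hba-a2 lay in introns. Car2 had 12%, yet in library 18 its 13 intron reads exceeded its 12 exon reads. Slc4a1 had 24.7%, with 31 of its 38 intron reads in library 20, 7 in library 23 and none in libraries 18, 21 and 22. Alas2 had 55.6% over the 4 libraries with an exon read, and in libraries 18 and 21 all of its reads lay in introns. These shares were not scaled by intron length, which differs between the genes.

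Other genes of the lineage were taken from lists drawn up by function, with earlier results of these data known. Their counts are therefore given as a description. Among 15 genes of the red cell membrane and its skeleton, 10 had at least 30 reads, and 8 of these spanned at least 4-fold, against 19.8% of all genes with that many reads. The same number, 8 of 10, were highest in library 23, against 23%, a library that was singled out after its values were seen. The most abundant member, Epb41, which encodes a skeleton protein that T cells also express, was 297, 286, 302, 245, 334 and 313 CPM in libraries 18 to 23. Gypc, a glycophorin gene, ranged from 11.1 to 19.3 CPM. Sptb, the beta spectrin gene, was highest in library 23 (21.6 CPM) and lowest in library 18 (4.94 CPM). The sum of all 15 was lowest in library 21 (292 CPM) and highest in library 23 (486 CPM), a 1.66-fold range.

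The scarce members of that list were those with a mean under 10 CPM, 12 in all. Their sum was 2.77, 5.27, 32.4, 13.3, 22.9 and 137 CPM in libraries 18 to 23. The interval of library 23 (121 to 155 CPM) lay above those of the other 5. Ermap, an erythroblast membrane gene, was 38.5 CPM there and no more than 7.20 CPM in any other. Ank1, the erythrocyte ankyrin gene, reached 25.3 CPM there, 5.82 CPM at most in the others, and had no read in library 21. In that shallow library no read still allowed 3.62 CPM, more than the Ank1 levels of libraries 18, 19 and 22.

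**Figure D4:**
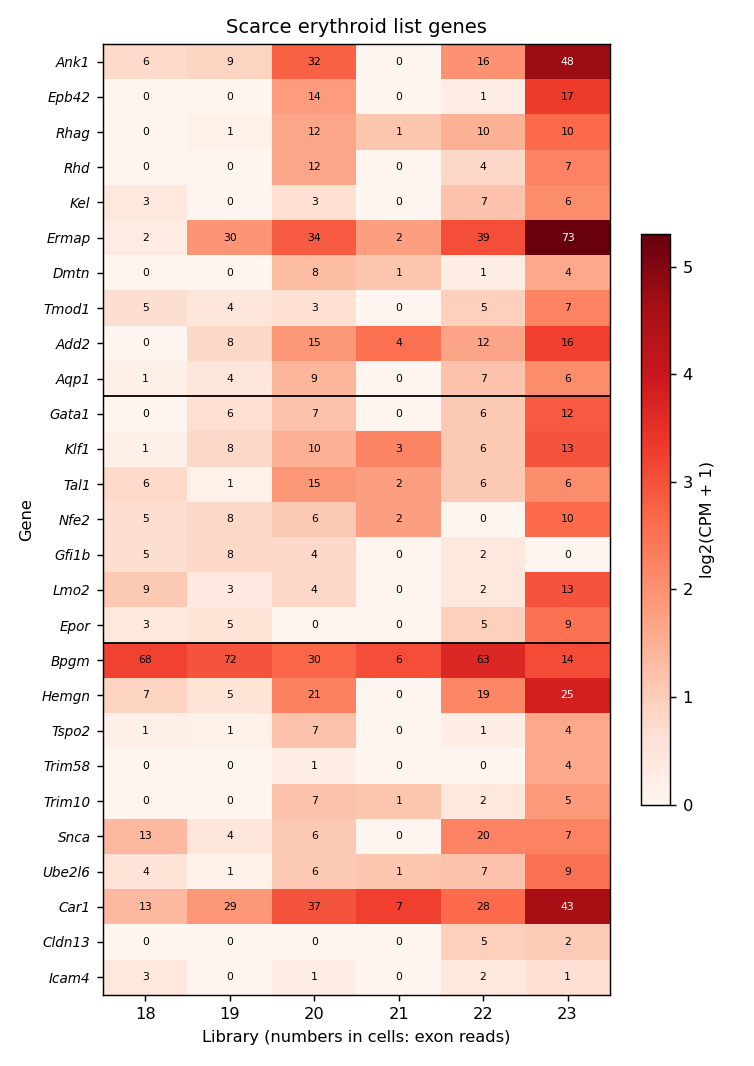
Levels of 27 of the 29 scarce genes (mean under 10 CPM) of 3 erythroid lists in libraries 18 to 23, as log2(CPM + 1), with exon reads printed in each cell. Black lines separate membrane genes, transcription factors with the erythropoietin receptor, and late erythroid genes. In 24 of the 27 the level was highest in library 23, and in 12 of the 14 with at least 30 reads, against 23% of all genes with that many reads. The 23% is not matched for read count.

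Erythroid transcription factors and the erythropoietin receptor had lower counts. Zfpm1, the cofactor of GATA factors and the most abundant of 8, was lowest in library 23 (59.6 CPM) and highest in library 21 (71.2 CPM). The remaining 7 summed to 3.49, 3.67, 8.36, 8.45, 4.98 and 33.2 CPM in libraries 18 to 23. Gata1, the master regulator of red cell development, had 12 reads in library 23, and Klf1, the activator of adult beta globin, had 13. Tal1, a factor needed for blood formation, had 6 reads there (3.16 CPM) and 15 in the deeper library 20 (2.73 CPM). Gfi1b, which encodes a transcriptional repressor made in erythroid and megakaryocyte cells, had no read in library 23. That still allowed 1.58 CPM, above its highest measured level, 0.753 CPM in library 19. Of 6 members with at least 30 reads, 5 spanned at least 4-fold, against 19.8% of all genes with that many reads, and 5 were highest in library 23, against 23%. The 5 that spanned 4-fold had only 31 to 41 reads each in total, and the shares of all genes are not matched for that.

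Of 16 late erythroid genes in the table, 10 had at least 30 reads. Among these, 4 spanned at least 4-fold (19.8% of all genes with that many reads) and 4 were highest in library 23 (23% of all). The 10 scarce genes of the list summed to 13.1, 10.55, 21.1, 18.1, 27.1 and 60.1 CPM in libraries 18 to 23. The interval of library 23 (49.6 to 72.2 CPM) again lay above the others. Car1, another carbonic anhydrase gene of red cells, was highest in library 23 (22.7 CPM) and lowest in library 18 (1.57 CPM). Hemgn, an erythroid nuclear protein gene, was 13.2 CPM in library 23 and had no read in library 21. No read there still allowed 3.62 CPM, more than its levels in libraries 18, 19 and 22. Bnip3l, which drives the clearance of mitochondria in reticulocytes and is also expressed by lymphocytes, stayed between 106 and 149 CPM. Mkrn1 and Acp5, the next most abundant, ranged from 55.9 to 89.0 CPM and from 47.1 to 80.2 CPM.

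Genes of haem synthesis other than Alas2 are used by most cells. All 12 were read in every library. Their sum was highest in library 23 (252 CPM) and lowest in library 18 (201 CPM), a 1.26-fold range. Of the 12, 1 spanned at least 4-fold, the mitochondrial carrier gene Slc25a38, with 14.2 CPM in library 23 and 1 read in library 21, and 5 were highest in library 23. Over all genes with at least 30 reads these shares were 19.8% and 23%. The 4 scarce genes of the list summed to 22.8, 21.1, 24.9, 20.5, 20.1 and 42.7 CPM in libraries 18 to 23. Their interval in library 23 (33.9 to 53.1 CPM) lay above those of the other 5. Slc25a37, the mitochondrial iron importer gene, was 35.0 to 52.2 CPM, Fech, which inserts iron into haem, 25.2 to 50.2 CPM, Ppox, an oxidase late in the pathway, 15.7 to 29.5 CPM, and Alas1, the form of aminolevulinate synthase made in most tissues, 17.5 to 24.8 CPM.

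Embryonic and theta globins were almost absent. Of 6 such genes, Hbb-y, Hbb-bh1, Hbb-bh2 and Hbq1a had no read in any library. No read still allowed 0.282 CPM in library 19, the deepest, and 3.62 CPM in library 21, the shallowest. The embryonic alpha-like gene Hba-x had 5 reads, all in library 20, and Hbq1b had 2, both in library 18.

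The genes whose pattern over the 6 libraries was most like the sum of the 7 were mainly immunoglobulin segments. Among 8943 genes with a median of at least 5 CPM, the smallest root mean square differences were those of Igkv3-1 (0.48), Igkv19-93 (0.57), another kappa segment, ENSMUSG00000076523 (0.85), Igkv5-39 (1.02) and Slpi (1.08), against a median of 2.21. The first 4 are kappa light chain variable segments of B lineage cells, whose near-identical copies can share reads, and Slpi encodes a secreted protease inhibitor. Igkv19-93 was 0.241 and 1.32 CPM in libraries 18 and 19, and 5.45, 15.7, 15.9 and 40.6 CPM in libraries 20 to 23.

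B cell markers were present in all libraries. The 8 markers summed to 1016, 2006, 4084, 4006, 4790 and 5307 CPM in libraries 18 to 23, a 5.23-fold range against 77.5-fold for the erythroid sum. They consisted mostly of Igkc (median 3243 CPM) and Ighm (median 586 CPM), the kappa and mu chain constant regions, followed by Cd74 (50.2 CPM) and H2-Aa (10.9 CPM). All 8 were read in every library. Of the 8, 3 spanned at least 4-fold (19.8% of all genes with at least 30 reads) and 3 were highest in library 23 (23% of all). Cd79b, a B cell receptor chain gene, was lowest in library 23 (1.05 CPM) and highest in library 22 (18.3 CPM). The part that other cell types, depth or library handling had in the erythroid levels was not tested.

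**Figure D5:**
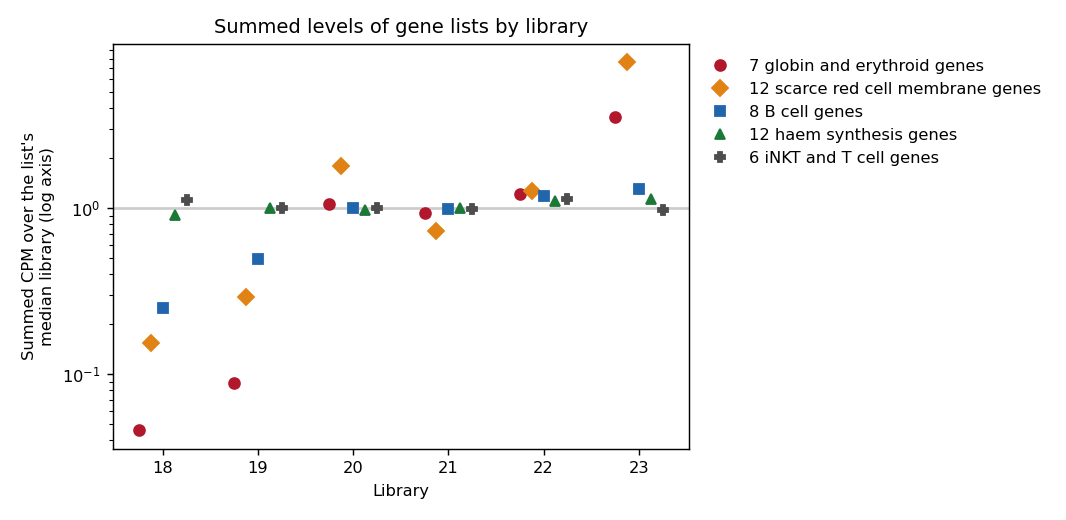
Summed CPM of gene lists in libraries 18 to 23, divided by the median library of the same list, on a log axis. Each symbol is 1 list in 1 library, and symbols are set side by side for clarity. The 7 globin and erythroid genes and the 12 scarce membrane genes spread most of the sets drawn. Those 12 are part of a list of 15, whose whole sum, not drawn, ranged 1.66-fold. The B cell list was lowest in library 18. The haem synthesis and iNKT and T cell lists, drawn whole, stayed close to 1.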

How the data were processed

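RNA of sorted spleen NKT cells was sequenced in 6 libraries. Per the labels' protocols, the RNA came from a NucleoSpin RNA XS Micro kit and was turned into libraries by a QIAseq UPXome kit. The submitters' processing notes name the builds GRCm38 and mm10. The sources used here do not give the aligner, the counting tool or the use of strand and molecular identifiers.

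Per the file headers, the deposited table gives whole exon read counts, which are not normalized. The authors also deposited RPKM, which corrects for exon length and depth. Per the file headers, the table also gives the fraction of exon reads with a single match and the ratio of intron reads to all gene reads. From these, unique and intron reads were recovered for genes with an exon read. Per the file headers, 12 other columns of values were present, and they were not used.

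CPM used effective library sizes from TMM factors (edgeR 4.0.16, R 4.3.3) on the 9510 genes that passed filterByExpr, run with 1 group for all 6 libraries. Poisson, binomial and ratio intervals are exact at 95% (scipy 1.17.1), and the limit for a count of 0 is 3 reads. The code for spans and likeness was run on simulated counts with Poisson noise, as a check of the code and not of the levels. The changed genes there all lay above the level called scarce, so changes in scarce genes were not covered. Coordinates of all 7 genes were the same in the table and in GENCODE M21.

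The planned edgeR comparison of genotypes was not run, because no library was matched to a label. The members and the 10 gene lists (98 genes) were chosen with earlier results of these data known. In each list the 2 to 4 genes with the highest median CPM are named, as are all 6 iNKT and T cell markers, all 7 members and the 5 genes nearest the summed pattern (among genes whose median reached 5 CPM, without predicted genes or pseudogenes). The background of genes with at least 30 reads, the mean of 10 CPM under which a gene is called scarce and the attention to library 23 were set after the data were seen. Ank1, Gata1, Gfi1b, Car1, Hemgn, Slc25a38, Alas1, Hba-x, Hbq1b, Cd79b, Spic, Gp1bb, Treml1 and the genes without reads were named after their values were seen. Ahsp was not found by symbol or identifier. Some list genes are not reported here by name, but they are part of the counts and sums of their list.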

Additional observations from a re-analysis of the deposited data

How the results depend on the processing

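The ratio of library 23 to library 18 for the 7 summed genes, 77.5, was 74.1 when scaled to all exon reads, 77.2 with DESeq2 size factors, 73.8 with TMM factors from unfiltered genes and 69.5 in the authors' RPKM. It was 69.9 for the 4 globin genes alone and 96.9 for the other 3, all inside its 95% interval. Leaving out each library in turn gave 26.5 to 77.5. The median beta share of globin reads, 76.4%, ranged from 76.3% to 76.6% in the same way. For each gene alone, the 3 other scalings stayed inside the main interval, as did the RPKM of Hbb-bs, Hbb-bt and Car2. A ratio of RPKM was not formed for the 4 genes listed at 0 in a library. Low counts limit libraries 18, 19 and 21 most. No paired analysis was possible because no library was matched to a label, and the genotype fits planned with edgeR and DESeq2 were not run.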

Other observations

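On a log scale the widest gap between summed erythroid levels lay between library 21 (113 CPM) and library 19 (10.6 CPM), a 10.7-fold step. Library 18 lay below that gap at 5.54 CPM, and libraries 20, 22 and 23 above it at 129, 147 and 430 CPM. The libraries carry no group labels, and no comparison was made between the sets on either side.

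Platelet genes did not follow the globin order. Itgb3, the beta chain of the platelet fibrinogen receptor, made up most of the 9-gene sum and was 313, 273, 261, 286, 272 and 330 CPM in libraries 18 to 23. The other 8 summed to 11.9, 7.44, 7.09, 18.1, 4.06 and 27.4 CPM, so that library 18 held more than libraries 19, 20 and 22. Among these, Clec1b had a median of 2.99 CPM and Itga2b of 2.02 CPM, and Gp1bb and Treml1 had 1 and 2 reads over all libraries. Of 6 platelet genes with at least 30 reads, 4 spanned at least 4-fold (19.8% of all genes with that many reads) and 5 were highest in library 23 (23% of all).

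Red pulp macrophages engulf aged red cells in the spleen. The 10 genes listed for them summed to 5.30, 6.5, 11.3, 13.3, 10.9 and 11.6 CPM in libraries 18 to 23, led by Vcam1 (median 3.45 CPM), Hmox1 (1.71 CPM) and Slc40a1 (1.54 CPM). The defining factor gene Spic had 7 reads in all. Of 4 with at least 30 reads, 4 spanned at least 4-fold, against 19.8% of all genes with that many reads, and 1, Vcam1, was highest in library 23, against 23%. These 4 had 33 to 71 reads each in total, and the sum of the list ranged only 2.50-fold. The 7 neutrophil genes had 3 reads in all libraries together, and S100a8, Retnlg, Camp, Ltf and Ngp had none.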
